A study of Oryza sativa with 6 samples.

Results

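The WRKY genes of rice described here, which encode transcription factors, are those with a symbol or synonym of WRKY plus a number in the RefSeq gene table, joined by gene number to probe sets that name 1 gene. The rule found 6 genes, all of them measured, on 7 probe sets, out of 17905 genes with a probe set of their own. They are WRKY71 (LOC4328512, chromosome 2), WRKY24 (LOC4327518, chromosome 1, also called WRKY8), WRKY51 (LOC4335388, chromosome 4), WRKY9 (LOC4343736, chromosome 7), WRKY62 (LOC4347070, chromosome 9, also called XB10) and WRKY76 (LOC4347069, chromosome 9). WRKY71 has 2 probe sets and the other genes have 1 each. Genes that the table does not call WRKY were not analysed here, so these 6 stand for named members and not for the whole rice family.

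WRKY factors are a plant family that binds DNA through a domain named after its conserved amino acids, and the DNA element most of them bind is the W-box. Many are switched on within minutes to hours of wounding, chitin or pathogen contact, downstream of membrane receptors and MAP kinases, and act on defence and hormone genes. In rice, WRKY71 and WRKY51 are best known from the aleurone layer of the grain, where they act together as repressors of gibberellin-induced amylase genes. WRKY24 represses gibberellin and abscisic acid responses in the same layer, and WRKY62 and WRKY76 are known as negative regulators of resistance to blast and bacterial blight.

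The study hybridised RNA from whole young inflorescences of the sro mutant and of wild type rice, both given with the Japonica variety 9522, to 6 Affymetrix rice arrays, 3 for each genotype. Plants grew in the paddy field without special treatment, and inflorescences were taken at 4 to 5 mm, when per the labels SRO expression is at its peak and stamens and carpels have been initiated in most spikelets. The question the design poses is what the mutant transcribes differently at that stage. The labels name no allele for sro, and the tables used here name no gene SRO, so the mutated gene was not checked. Each array held 1 biological replicate. The array medians lay between 5.30 and 5.31 in sro and between 5.26 and 5.29 in wild type on the log2 scale, and precision rests on 3 arrays a group.

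Of the 6 WRKY genes, 2 were called higher in sro, 0 were called lower and 4 were not called (limma adjusted p under 0.05 over all probe sets; 2 had an unadjusted p under 0.05). Over all genes with 1 probe set each, 26.6% were called, 7.28% higher and 19.4% lower. WRKY71 rose 4.50-fold, while the other call, WRKY24, was made on a probe set whose values lay under those of the fungal control probe sets on every array. The median log2 change of the 6 genes was -0.0061, beside -0.055 over all genes. A bulk sample cannot tell more cells of a type from more RNA per cell.

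A reading level without target was taken from the 10 probe sets for the rice blast fungus Magnaporthe. They averaged 4.69 ± 0.017 in sro and 4.65 ± 0.13 in wild type (SD, n = 3 arrays each), with single probe sets between 3.66 and 5.88. By this level the 6 genes fell into 2 sets of 3. WRKY71, WRKY51 and WRKY9 averaged above it in both genotypes, and WRKY24, WRKY62 and WRKY76 averaged below it in both. Over all genes, 14.2% had both group means below it.

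**Figure D1:**
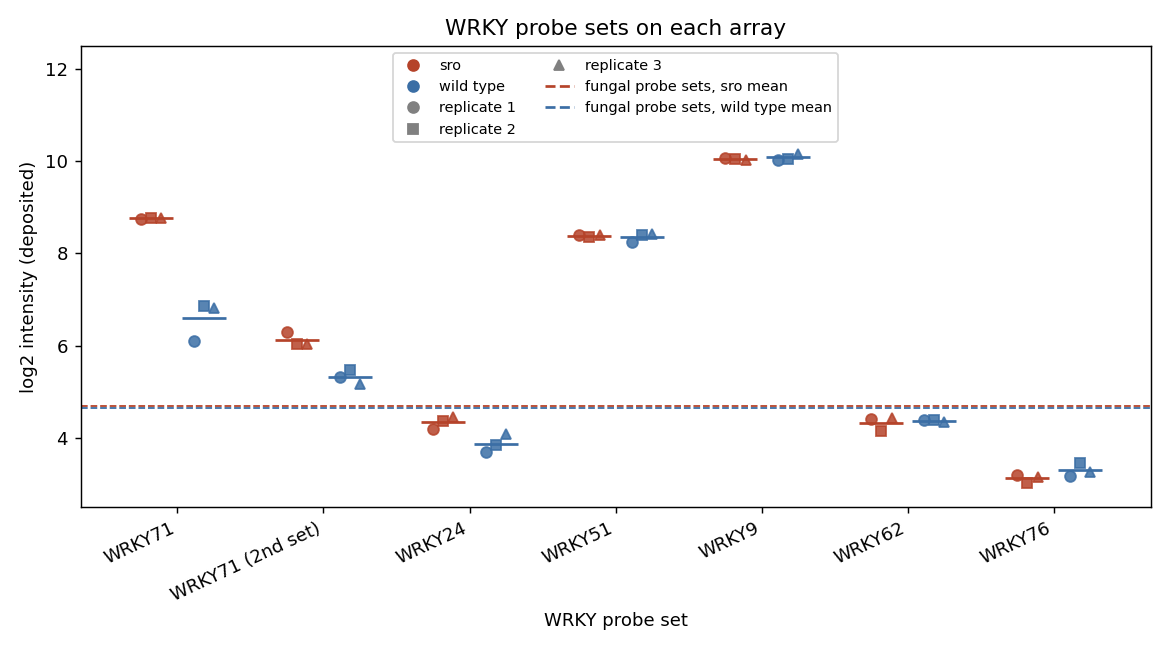
Deposited log2 intensity of the 7 WRKY probe sets (x axis) on each array, with sro at the left and wild type at the right of each pair, a symbol per replicate, short bars for group means and dashed lines for the fungal probe set mean of each genotype. The WRKY71 arrays of sro lie at 8.74 to 8.77, above the wild type arrays at 6.10 to 6.85, while WRKY24, WRKY62 and WRKY76 lie below the dashed lines on all 6 arrays.

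WRKY71 read 8.74, 8.77 and 8.76 on the 3 sro arrays, against 6.10, 6.85 and 6.81 on the 3 wild type arrays, in log2 intensity. The sro arrays were nearly alike and the wild type arrays were not, replicate 1 being the low one, but the groups stood 1.89 apart at their closest. The means were 8.76 ± 0.014 in sro and 6.59 ± 0.42 in wild type (SD, n = 3 each). The log2 change was 2.17 (SE 0.18, 95% interval 1.76 to 2.58, limma adjusted p = 0.000348), and 32 of the 17905 genes rose more. WRKY71 was among the 0.235% of genes called and at least 4-fold higher. Without wild type replicate 1 the change was 1.93 (adjusted p = 2.07e-05). Taking sro replicate 2 alone, the sro array whose labelling spike was nearest wild type, the change was 2.18. That comparison was chosen after seeing the data, and because it has 1 sro array its spread comes from wild type alone. For single genes, only its changes are therefore given below. Its counts of calls appear only in the closing section.

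The second, dimmer probe set of WRKY71 read 6.30, 6.03 and 6.04 in sro, against 5.31, 5.46 and 5.16 in wild type. Its groups did not overlap either, and both means lay above the fungal level, by 1.43 in sro and by 0.66 in wild type. The wild type values still lay within the span of single fungal probe sets (3.66 to 5.88), so they were close to the level without target. Its log2 change was 0.81 (SE 0.10, limma adjusted p = 0.00207), a 1.75-fold rise. The 2 probe sets thus gave the same direction and different sizes. On a log2 scale the brighter set exceeded the dimmer by 2.64 ± 0.17 in sro and by 1.28 ± 0.44 in wild type (SD, n = 3 each), with no overlap between the groups (exact permutation p = 0.1, two-sided, and 3 against 3 arrays cannot go lower). With the mean over both probe sets in place of the brighter one, the change of WRKY71 was 1.49 (adjusted p = 0.000324). With sro replicate 2 alone, the change of the dimmer set was 0.71.

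WRKY51, the partner of WRKY71 in the aleurone, read 8.40, 8.36 and 8.40 in sro, against 8.25, 8.40 and 8.42 in wild type. The 2 groups overlapped. Its log2 change was 0.030 (SE 0.066, limma adjusted p = 0.808), and the 95% interval of -0.12 to 0.18 does not reach the change of WRKY71. WRKY71 and WRKY51 therefore changed unequally within arrays. The log2 value of WRKY71 less that of WRKY51 was 0.37 ± 0.037 in sro and -1.77 ± 0.33 in wild type (SD, n = 3 each; exact permutation p = 0.1, two-sided, the smallest possible). As these are different probe sets, the sign of either value says nothing of which transcript was more abundant.

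WRKY9 read 10.06, 10.04 and 10.02 in sro, against 10.04, 10.05 and 10.16 in wild type. These groups overlapped as well, and the arrays of each genotype were close together. The log2 change was -0.042 (SE 0.061, 95% interval -0.18 to 0.099, limma adjusted p = 0.698).

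WRKY24 read 4.19, 4.37 and 4.46 in sro, against 3.69, 3.85 and 4.08 in wild type. The groups did not overlap, by a gap of 0.11, but each of the 6 values lay below the fungal mean of its own array, so no fold is given. The log2 difference was 0.47 (SE 0.11, limma adjusted p = 0.0276). It missed the threshold without sro replicate 2 (0.45, adjusted p = 0.0797), sro replicate 3 (0.41, adjusted p = 0.0985), wild type replicate 1 (0.38, adjusted p = 0.0731) or wild type replicate 2 (0.46, adjusted p = 0.0702), each of which left WRKY71 as the 1 WRKY gene called. With sro replicate 2 alone the difference was 0.50. It also missed it in a linear model without moderation (0.47, adjusted p = 0.138) and after a further quantile normalization (0.42, adjusted p = 0.0594). Taken against the fungal mean of each array, WRKY24 lay at -0.35 ± 0.15 in sro and -0.78 ± 0.32 in wild type (SD, n = 3 each), where the groups overlapped (two-sided exact permutation p = 0.2). Groups that do not overlap were found for 2 of the 6 WRKY genes, WRKY71 and WRKY24, and for 53.3% of all genes.

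WRKY62 and WRKY76 lie next to each other on chromosome 9 in the RefSeq gene table. WRKY62 read 4.41, 4.15 and 4.42 in sro, against 4.39, 4.38 and 4.34 in wild type, with overlapping groups (log2 difference -0.043, SE 0.083, limma adjusted p = 0.774). WRKY76 read 3.19, 3.02 and 3.16 in sro, against 3.17, 3.46 and 3.25 in wild type, again with overlap (log2 difference -0.17, SE 0.089, limma adjusted p = 0.253). Neither gene reached the fungal level on any array, so their levels are given only as below it, with no fold. The log2 value of WRKY62 less that of WRKY76 was 1.20 ± 0.070 in sro and 1.08 ± 0.15 in wild type (SD, n = 3 each; two-sided exact permutation p = 0.3). With both probe sets below the fungal level, this difference says nothing of the 2 transcripts.

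**Figure D2:**
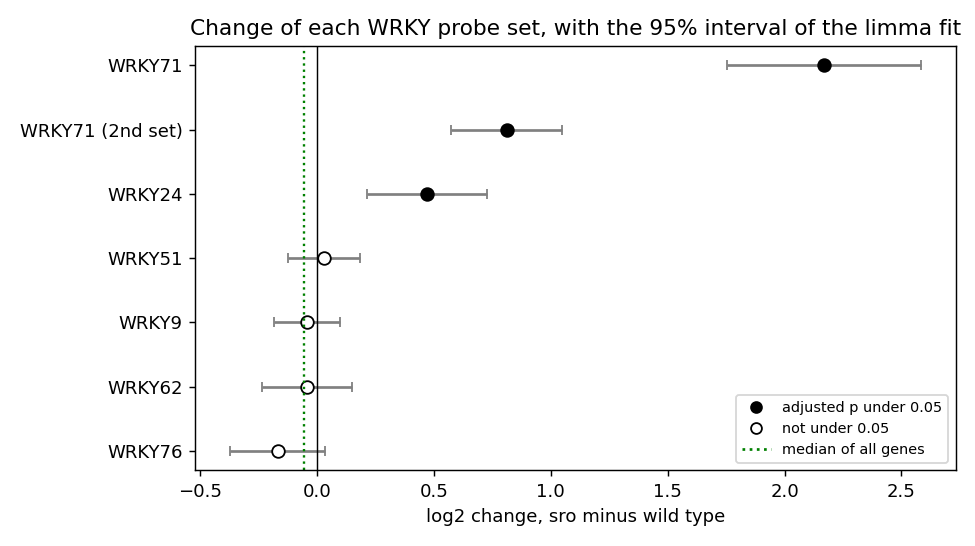
Log2 change of each WRKY probe set, sro minus wild type (x axis), with the 95% interval of the limma fit as bars, filled points for adjusted p under 0.05 and a dotted line at the median of all genes (-0.055). The 2 WRKY71 probe sets lie at 2.17 and 0.81 and WRKY24 at 0.47, and the intervals of the other 4 genes include 0.

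**Figure D3:**
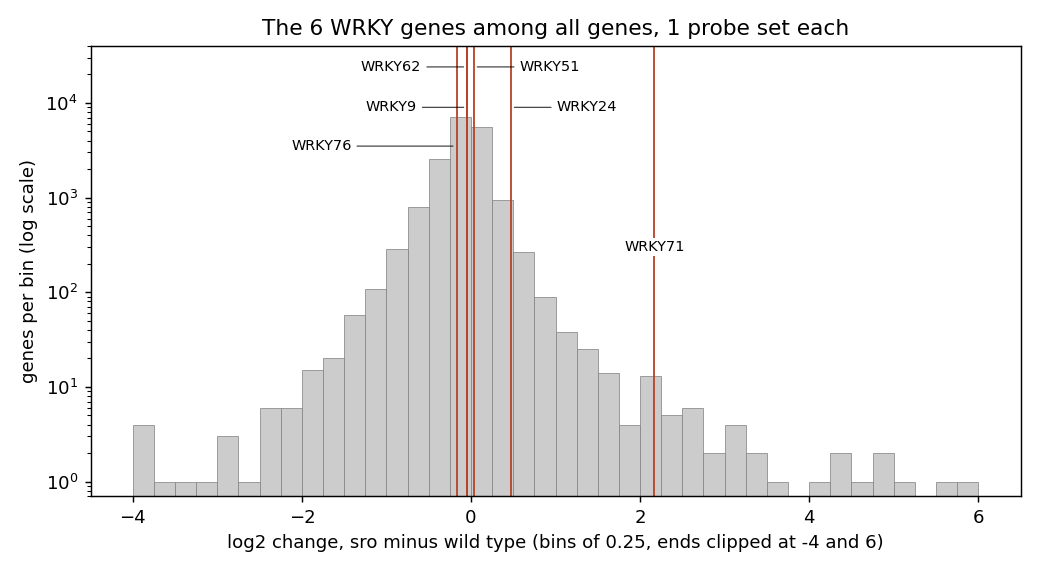
Number of genes (y axis, log scale) by log2 change, sro minus wild type (x axis), for 17905 genes with 1 probe set each, with a line for each WRKY gene. WRKY71 lies in the sparse right tail at 2.17, with 32 genes beyond it, and the other 5 lie in the bulk between -0.17 and 0.47.

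The genes beside WRKY71 were not called higher. Of the 3 measured genes on either side of it in the RefSeq order of chromosome 2, 0 rose, 1 fell and 5 were not called. The one that fell was CLPB3 (log2 change -0.62, limma adjusted p = 0.0022), which encodes a chaperone of the ClpB kind. The nearest measured genes on the 2 sides, LOC4328509 and LOC4328514, had changes of 0.027 (adjusted p = 0.83) and 0.012 (adjusted p = 0.914). Over the neighbours of all 6 genes taken the same way, 10 of 36 places were called (27.8%, beside 26.6% of all genes). By direction 6 were higher and 4 lower, beside 7.28% higher and 19.4% lower over all genes. Some genes, among them LOC4347073, were counted for both WRKY62 and WRKY76, and these 2 were counted as neighbours of each other. Beside WRKY62 and WRKY76, LOC4347068 (0.089, adjusted p = 0.37) and CIPK16, a calcium-regulated kinase gene (-0.030, adjusted p = 0.847), were not called, while farther out LOC4347073 rose by 0.73 (adjusted p = 0.000321) and LOC4347074 fell by 0.998 (adjusted p = 0.00409). LOC4327519, the nearest measured gene on 1 side of WRKY24, rose by 0.99 (adjusted p = 0.0016), and LOC4327517 on the other side fell by 0.45 (adjusted p = 0.0191). The neighbours of WRKY51 held 1 call, LOC4335384, which fell by 0.38 (adjusted p = 0.0163). WRKY9 had 3 higher neighbours of 6 (50% called, beside 26.6% of all genes). Among them was CIGR2 next to it (0.35, adjusted p = 0.0331), a GRAS factor induced by chitin and gibberellin. The rule for neighbours was set after values had been seen.

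The pathway above WRKY factors runs from chitin receptors through MAP kinases, with the NPR1 group as salicylate coactivators. Of 15 measured genes on this list, 2 were called higher (13.3%), 2 lower (13.3%) and 11 not, with a median log2 change of 0.0093. In all 26.7% were called, beside 26.6% of all genes (7.28% higher and 19.4% lower). MAPK5, the MAP kinase also called BIMK1 that blast infection induces, read 8.52, 8.64 and 8.52 in sro, against 8.09, 7.88 and 8.07 in wild type, and rose by 0.55 (SE 0.077, limma adjusted p = 0.00317). All of its sro arrays lay above all of its wild type arrays. Groups did not overlap for 10 of the 15 genes on this list and for 53.3% of all genes. LYP4, a lysin motif receptor for chitin and peptidoglycan, averaged 6.52 ± 0.083 in sro and 7.24 ± 0.21 in wild type (SD, n = 3 each), a fall by 0.72 (limma adjusted p = 0.00375). It missed the threshold in a linear model without moderation (adjusted p = 0.0546). MPK6, another MAP kinase gene, fell by 0.33 (adjusted p = 0.00614). MPK4 rose by 0.23, with an adjusted p of 0.0495 that passed the threshold with all 6 arrays and was lost whichever array was left out (changes of 0.18 to 0.25, adjusted p 0.0678 to 0.148). With sro replicate 2 alone the changes were 0.63 for MAPK5, -0.68 for LYP4, -0.30 for MPK6 and 0.19 for MPK4. The chitin receptor gene CEBIP (0.0093, adjusted p = 0.95) and the coactivator gene NH1 (0.047, adjusted p = 0.631) were not called.

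The next list holds downstream defence genes of kinds that WRKY factors are known to act on, many of them taken by family name. Whether each gene is a target of a WRKY factor was not tested. Of 32 measured genes, 1 was called higher (3.13%), 3 lower (9.38%) and 28 not, with a median log2 change of 0.058. Over all genes 7.28% were called higher and 19.4% lower. For 16 of the 32, both group means lay below the fungal level. AOS3, an allene oxide synthase of oxylipin synthesis, rose by 0.59 (limma adjusted p = 0.00381). Its wild type mean was only 0.082 above the fungal level, and 2 of its 3 wild type arrays lay below the fungal mean of their own array. The chitinase genes Cht4 and Cht5 fell by 0.58 (adjusted p = 0.00391) and 0.51 (adjusted p = 0.00432), and the lipoxygenase gene LOX2 by 0.34 (adjusted p = 0.00925). The pathogenesis-related gene PBZ1 read 8.02, 8.20 and 8.20 in sro, against 8.86, 8.18 and 8.64 in wild type, and its groups overlapped (log2 change -0.42, adjusted p = 0.116). With sro replicate 2 alone the changes were 0.56 for AOS3, -0.54 for Cht4, -0.45 for Cht5 and -0.34 for LOX2.

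The third list held genes that respond early to wounding, touch or cold, taken by family name as DREB1, CML, JAZ, ERF and ZFP genes. Of 49 measured genes, 11 were called higher (22.4%), 7 lower (14.3%) and 31 not, and the median log2 change was 0.061, beside 7.28% higher and 19.4% lower over all genes and a median of -0.055. The list was written with earlier results of these data known, and these families include genes already seen to rise, so its count is a description only. By family, 4 of 5 DREB1 genes rose and 0 fell, 4 of 23 CML genes rose and 3 fell, and 3 of 13 JAZ genes rose and 3 fell. Of 4 ZFP genes 0 rose and 1 fell, and none of the 4 ERF genes was called. The calmodulin-like gene CML15 read 9.45, 9.52 and 9.49 in sro, against 5.96, 6.42 and 6.40 in wild type (log2 change 3.23, SE 0.12, limma adjusted p = 5.56e-06). JAZ10, a jasmonate repressor, read 10.92, 10.99 and 10.99 in sro, against 8.49, 8.64 and 8.63 in wild type (log2 change 2.38, adjusted p = 1.01e-06). JAZ13 and JAZ9, of the same repressor family, also rose (adjusted p = 1.62e-08 and 7.62e-05), and their wild type means of 4.52 and 4.41 lay below the fungal level. None of these 4 genes had overlapping groups, which also held for 28 of the 49 genes on the list and 53.3% of all genes. JAZ8, JAZ3 and JAZ4 fell by 0.73, 0.60 and 0.53 (adjusted p = 0.000308, 0.00189 and 0.00193).

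In several of these genes the wild type arrays were spread in the way seen for the brighter WRKY71 probe set. DREB1B, a cold and drought factor, read 11.10, 11.37 and 11.27 in sro, against 7.28, 8.86 and 7.91 in wild type. CML31, a calmodulin-like gene, read 9.09, 9.12 and 9.18 in sro, against 6.29, 7.39 and 7.09 in wild type. DREB1A read 9.47, 9.55 and 9.48 in sro, against 6.57, 8.59 and 8.03 in wild type. In all 3 genes the sro arrays were close together and wild type replicate 1 was the lowest array, as in the brighter WRKY71 set. The dimmer WRKY71 set differed in this, with wild type replicate 3 lowest and SDs of 0.15 in both genotypes. Wild type replicate 1 was the lowest wild type array for 10 of the 11 early genes called higher, for 73.3% of the genes called and at least 2-fold higher, and for 40.9% of all genes. Replicate 1 was also the lowest wild type array for 5 of the 6 WRKY genes, all but WRKY62. Among them were WRKY51, WRKY9 and WRKY76, which were not called, so this order was not particular to genes that rose. The called genes were chosen by calls made on the same arrays, so the counts are a description only. The median SD of the 11 genes was 0.073 in sro and 0.29 in wild type, beside 0.053 in sro and 0.081 in wild type over all genes. Without wild type replicate 1 the rises were smaller and still called, at 1.93 for WRKY71 (adjusted p = 2.07e-05), 1.89 for CML31 (adjusted p = 0.000179), 2.87 for DREB1B (adjusted p = 0.00136) and 1.19 for DREB1A (adjusted p = 0.00491). With all arrays DREB1A rose by 1.77 (adjusted p = 0.0296), a call lost with an intensity trend (adjusted p = 0.137) and in a linear model with no moderation (adjusted p = 0.177). It was also lost on leaving out sro replicate 1 (1.79, adjusted p = 0.0811), sro replicate 2 (1.75, adjusted p = 0.0783), sro replicate 3 (1.78, adjusted p = 0.0793) or wild type replicate 3 (1.92, adjusted p = 0.068).

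**Figure D4:**
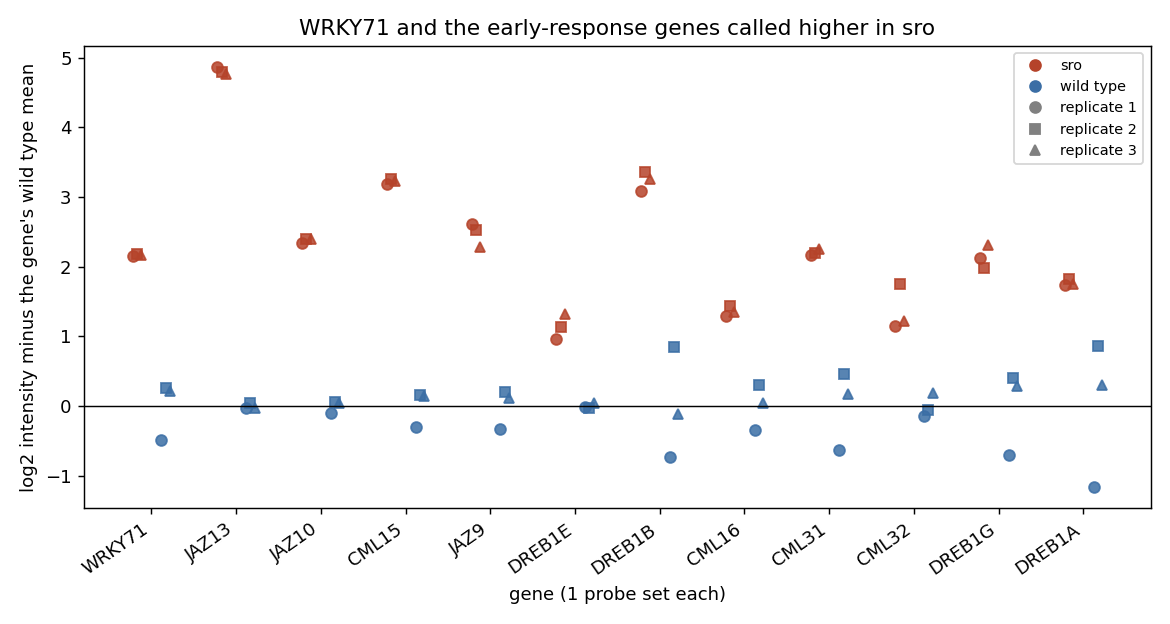
Log2 intensity of WRKY71 and the 11 early-response genes called higher in sro (x axis), less each gene's wild type mean (y axis), with sro at the left and wild type at the right and a symbol per replicate. The sro arrays of WRKY71 lie at 2.15 to 2.18, and wild type replicate 1 lies at -0.48 for WRKY71, -0.73 for DREB1B and -1.16 for DREB1A.

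Some tissue markers and labelling controls also moved with genotype, and others did not. All 12 measured inflorescence and spikelet genes read above the fungal level in both groups. Of these, 5 were called higher, by 0.22 to 0.49, and 1 lower (50% called, beside 26.6% over all genes). The lower one was LAX1, needed for axillary meristems, which read 7.30, 7.43 and 7.24 in sro, against 10.07, 8.32 and 9.51 in wild type (log2 change -1.98, limma adjusted p = 0.0107). Of the 4 late anther genes, 3 were called higher (75%, beside 7.28% of all genes). The summed intensity of the 4 ran from 1383 to 1506 in sro and from 142 to 494 in wild type. The wild type means of RTS (4.31) and C6 (4.61) lay below the fungal level, so that part of the wild type sum gives no more than a bound. Of the 3 green tissue genes, CAB2R fell by 1.27, the small Rubisco subunit gene rbcS was not called, and RBCS1 lay below the fungal level in both genotypes. The summed intensity of these 3 ran from 1039 to 1171 in sro and from 1147 to 1300 in wild type. The dap labelling spike, read at its 5 prime end, was 9.74, 7.46 and 9.03 in sro, against 7.08, 7.12 and 7.12 in wild type (exact permutation p = 0.1, two-sided, the smallest possible). Its 3 prime minus 5 prime difference was 1.56, 3.97 and 2.33 in sro, against 4.13, 3.93 and 4.06 in wild type, with overlap (exact permutation p = 0.2, two-sided). The 3 prime minus 5 prime difference of GAPDH, which can follow RNA quality or labelling, was 1.29, 1.63 and 1.37 in sro, against 1.64, 1.66 and 1.65 in wild type, without overlap (exact permutation p = 0.1, two-sided). That of actin averaged 3.13 ± 0.23 in sro and 3.48 ± 0.16 in wild type (SD, n = 3 each; exact permutation p = 0.2), and that of cyclophilin 0.60 ± 0.074 in sro and 0.69 ± 0.059 in wild type (exact permutation p = 0.3). Across the sro arrays the brighter WRKY71 set varied by 0.028. The dimmer set was highest (6.30) on replicate 1, where the spike was highest. It differed little between replicates 2 and 3 (6.03 and 6.04), although their spikes were 7.46 and 9.03. The parts of the anther markers, RNA quality and labelling in the WRKY71 result were not tested.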

How the data were processed

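Biotin-labelled cRNA from 500 ng of total RNA was hybridised to Affymetrix arrays, per the labels' protocols. The deposited values are log2 intensities, 1 column per array. Per the submitters' processing notes the authors used RMA and Partek, with no version or order stated, and the log2 scale was read from the values. The labels do not say that replicates came from separate plants, so p-values measure the spread between these samples.

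Of 57381 probe sets, 123 Affymetrix controls were left out and 57258 tested, as deposited, with limma 3.58.1 in R 4.3.3 (lmFit, eBayes, no covariates, two-sided, Benjamini-Hochberg over all, threshold 0.05). The fit was checked on simulated normal values with the same spread in both genotypes. That check does not cover genes whose spread differs between genotypes, such as the brighter WRKY71 set. Every adjusted p is limma's. Each gene was read from its probe set with the highest mean over 6 arrays. Names came from the platform annotation (22436 probe sets with 1 gene, 95 with several, not named) and the RefSeq table of ASM3414082v1, where all 17905 genes matched. No coordinates are printed, since builds may differ. The fungal level was chosen after values were seen.

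The members and lists were chosen with earlier results of these data known. An actin gene, NH1 (as a downstream gene) and MADS18, taken in through shared synonyms, were left out. Named are all WRKY genes, some of their neighbours, and up to 4 genes per list with the smallest p. List genes picked after their values were seen are also named (PBZ1, CEBIP, NH1, JAZ8, JAZ3, JAZ4, DREB1B, CML31, DREB1A). The planned reading of WRKY protein groups and W-box motifs was not run, as no sequence table was used here. The values showed no sign that replicate numbers pair the samples. Deviations of same-numbered arrays from their group means correlated at -0.028 to -0.0037, beside -0.010 to 0.029 for arrays of unlike number. This does not settle whether same-numbered samples were collected or processed together. Alternatives were each array left out, a replicate block, an intensity trend, no moderation, 2 rescalings, a filter on dim probe sets and 2 other choices of probe set.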

Additional observations from a re-analysis of the deposited data

How the results depend on the processing

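WRKY71 stayed higher in sro and past the threshold under all 14 alternatives that kept at least 2 arrays of each genotype (changes of 1.49 to 2.30, adjusted p 2.07e-05 to 0.0243), and WRKY51, WRKY9, WRKY62 and WRKY76 were called under none of those that could be run (WRKY76 is not among the probe sets kept by the filter on dim ones). No WRKY gene was called lower under any of them, and the median change of the 6 genes lay between -0.028 and 0.045. A further comparison, sro replicate 2 alone, was added after seeing the data. With 1 sro array it takes its spread from wild type and assumes the same for sro, so its lost calls say little about single genes. The count of WRKY genes called higher, 2, was 1 to 2 with an array left out, and 1 without moderation, after quantile normalization again and with sro replicate 2 alone. The replicate block left the count at 2, with WRKY71 at an adjusted p of 0.000987 and WRKY24 at 0.0106. Among upstream genes, the 2 called higher became 1 with any array left out, under the replicate block, without moderation and with arrays centred on their medians. They became 3 with an intensity trend, after quantile normalization again and with the mean over all probe sets of a gene. The 2 called lower became 5 with an intensity trend and 1 without moderation. They became 3 with the filter on dim probe sets and with the mean over all probe sets. Downstream calls were 0 higher and 0 lower with sro replicate 2 alone. Early genes called higher were 7 there and those called lower 1, and the 7 called lower were 4 to 6 with an array left out. The replicate block moved no other count by more than 1.5 times. Over all probe sets, 8377 were called, 4589 to 7907 with an array left out, 4965 without moderation and 668 with sro replicate 2 alone. The cause of these shifts was not tested, but leaving out arrays also leaves fewer samples. For genes below the fungal level the signal gives no more than a bound.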
